A study of Mus musculus with 18 samples.

Results

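The early growth response factors *Egr1*, *Egr2* and *Egr3* and their NGFI-A binding corepressors *Nab1* and *Nab2* were followed across 6 groups of mouse CD4+CD25- T cells. These 5 genes, of 55284 named entries in the deposited count table, were taken by gene symbol, with earlier results of these data known, and all 5 passed the filter on low counts.

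The EGR factors are zinc finger transcription factors whose genes are switched on within minutes of T cell receptor signaling, through the ERK pathway acting on serum response factor and ETS partners and, for *Egr2* and *Egr3*, through calcineurin and NFAT. In mouse T cells EGR1 is known as an activator of early response genes, while EGR2 and EGR3 are known for their part in anergy, the unresponsive state that follows antigen encounter without full costimulation. NAB1 and NAB2 bind an inhibitory domain of EGR1, EGR2 and EGR3 and recruit the NuRD chromatin remodeling complex, and *Nab2* is itself a target of EGR factors, so that the pair forms a feedback brake.

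The cells came from 3 competitive bone marrow chimeras, numbered 10, 11 and 12, in which irradiated BoyJ hosts had received a minority of marrow lacking *Nr4a1* and *Nr4a3* (DKO) mixed with a majority of WT marrow. DKO and WT T cells therefore developed in the same host, and the genotypes were compared within it. The study reports that DKO thymocytes escape negative selection and proposes that DKO anergic cells may be highly self-reactive. The genotypes may thus differ in T cell receptor repertoire as well as in NR4A loss, and the part of either was not tested. DKO anergic and WT anergic cells were CD44hi CD62Llo CD73hi FR4hi and lysed straight after sorting. DKO stimulated and WT stimulated cells were CD44lo CD62Lhi CD73lo FR4lo naive cells that had been kept for 3 h with plate-bound anti-CD3 at 8 ug/ml and anti-CD28 at 2 ug/ml. DKO naive and WT naive cells were that same naive gate without culture. The strain is given as C57BL/6 and the tissue as spleen and lymph node for every library. Each group held 3 libraries, 1 from each chimera, and the age of the animals is not stated in the labels. The deletion was present in the germline of the donors and not only in T cells, the WT cells shared a host with DKO cells, and the stimulated cells differed from the other groups by culture as well as by receptor signaling. CD25- sorting does not remove every Treg.

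Libraries held 16122020 to 39752234 counts on named genes. DKO anergic libraries held 32529589 to 38380064, all above the 20851693 to 24195860 of WT anergic libraries. The DKO and WT totals overlapped in stimulated and in naive cells. The part of this difference in depth in the results was not tested. *Nr4a1* and *Nr4a3* were still counted in DKO libraries, at 161.8 to 168.8 TPM for *Nr4a1* in DKO anergic cells against 170.5 to 195.4 TPM in WT anergic cells, so these gene totals do not check the genotype, and DKO and WT stand for the labels throughout. The 8 T cell markers summed to 8730 to 14200 TPM in every library, and sums stayed at or below 46.7 TPM for 7 B cell markers and 11.4 TPM for 6 red cell markers. The 7 CD8 and NK cell markers summed to at most 226 TPM. The 7 Treg markers summed to 306 to 387 TPM in DKO anergic cells, against 1100 to 1480 TPM in WT anergic cells, with *Foxp3* at 19.7 ± 1.59 and 492 ± 43.2 TPM (SD, n = 3 each). The WT stimulated and WT naive libraries of chimera 12 stood apart: they had counts for 39478 and 38041 genes, against 42860 to 45748 in the other stimulated and 42493 to 44911 in the other naive libraries.

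The promoters of the members are shown because the motifs known to link receptor signaling to EGR genes, and EGR proteins to their own targets, can be looked up in them. RefSeq windows from 250 bases before to 50 bases after a start site (GRCm38.p6, the mm10 build of the files) were at hand for 3 of the 5 genes, *Egr2*, *Nab1* and *Nab2*. Both strands were searched for the CArG box bound by serum response factor, for the EGR consensus GCGNGGGCG, for the cAMP response element TGACGTCA and its core TGACG, which lies inside that element, and for the NFAT core GGAAA. Of 32851 mouse promoter windows of this length, 1.63% held a CArG box, 5.55% the EGR consensus, 1.79% the full cAMP response element, 20.8% its core and 61.3% the NFAT core. Of 5 windows for *Egr2*, which overlap in part, 4 held a CArG box. The windows that begin at 67537619, 67537620 and 67537680 hold the same box, so the 4 are not separate boxes. In the *Egr2* window chr10:67537619-67537918 (plus strand) it began 72 bases before the start, between TGACG cores that began 111 and 55 bases before it, and these are in capitals. An NFAT core began 8 bases before the start and is left in lower case. CGTCA is TGACG read on the other strand. In the *Nab1* window chr1:52500399-52500698 (minus strand) the capitals mark matches to the EGR consensus that began 141, 109 and 38 bases before the start and a TGACG core at 123. The *Nab2* window chr10:127666654-127666953 (minus strand) held none of these motifs. In GENCODE vM21 the gene begins at 127668568, outside this window, and the stretch at that start was not searched. GC content was 60% for this *Egr2* window, 81.7% for *Nab1* and 74% for *Nab2*, where the median of all windows was 52.7%.
Egr2: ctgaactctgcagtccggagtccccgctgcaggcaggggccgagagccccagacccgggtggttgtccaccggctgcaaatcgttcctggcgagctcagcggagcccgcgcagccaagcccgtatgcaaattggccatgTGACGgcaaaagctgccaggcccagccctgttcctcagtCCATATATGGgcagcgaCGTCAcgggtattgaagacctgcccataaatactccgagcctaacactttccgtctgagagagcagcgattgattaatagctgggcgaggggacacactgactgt
Nab1: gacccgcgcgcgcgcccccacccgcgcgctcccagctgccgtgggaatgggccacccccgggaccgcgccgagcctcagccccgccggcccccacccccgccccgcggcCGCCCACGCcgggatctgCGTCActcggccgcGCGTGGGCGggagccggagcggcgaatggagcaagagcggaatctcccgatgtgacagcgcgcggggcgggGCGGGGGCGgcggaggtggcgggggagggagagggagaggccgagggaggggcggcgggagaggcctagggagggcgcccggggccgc
Nab2: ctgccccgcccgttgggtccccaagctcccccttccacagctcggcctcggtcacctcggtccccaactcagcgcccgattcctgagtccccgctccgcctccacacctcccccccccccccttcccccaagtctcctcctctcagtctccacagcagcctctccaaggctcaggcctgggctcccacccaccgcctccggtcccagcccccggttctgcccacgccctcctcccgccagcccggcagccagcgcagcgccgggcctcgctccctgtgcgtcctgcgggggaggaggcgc
A match of letters is a description of the window and does not show that a factor bound there.

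Levels are given as TPM, read counts scaled by gene length and by the total of the library, in the order of chimeras 10, 11 and 12. In bulk samples fewer cells of a type and less RNA per cell cannot be told apart. *Egr2*, the member known best from anergic T cells (ENSMUSG00000037868, chr10:67535475-67542188, plus strand), differed most between anergic and naive cells. It stood at 361.7, 298.1 and 272.6 TPM in DKO anergic cells and at 331.7, 278.5 and 300.9 TPM in WT anergic cells. It reached 794.5, 918.3 and 1009 TPM in DKO stimulated cells and 508.0, 673.0 and 696.8 TPM in WT stimulated cells. In naive cells it stood at 38.8, 35.7 and 32.6 TPM (DKO) and 36.7, 36.9 and 38.6 TPM (WT). The populations fell into 3 tiers that did not overlap, with stimulated cells on top and naive cells at the bottom, and in the order of group means the DKO and WT ranges overlapped in anergic and in naive cells but not in stimulated cells.

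*Egr1*, the founding member of the family (ENSMUSG00000038418, chr18:34859823-34864984, plus strand), stood at 363.5, 314.5 and 309 TPM in DKO anergic cells and at 325.1, 274.6 and 298.4 TPM in WT anergic cells. It reached 1746, 1939 and 2279 TPM in DKO stimulated cells and 1065, 1376 and 1537 TPM in WT stimulated cells. In naive cells it stood at 135, 105.2 and 110.8 TPM (DKO) and 117.2, 112 and 114.5 TPM (WT). The tiers were again free of overlap, and the genotypes overlapped in anergic and naive cells but not in stimulated cells.

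*Egr3*, the close relative of *Egr2* (ENSMUSG00000033730, chr14:70077203-70082614, plus strand), was the least abundant of the 3 factors in every library. It stood at 33.8, 17.6 and 22.6 TPM in DKO anergic cells and at 16.4, 18 and 14.1 TPM in WT anergic cells, so that chimera 11 was the one in which the TPM of the genotypes were level. It reached 153.5, 221.9 and 173.6 TPM in DKO stimulated cells, all above the 72.9, 104.0 and 104.3 TPM of WT stimulated cells. In naive cells it stood at 10.8, 7.28 and 6.96 TPM (DKO) and 8.09, 9.02 and 8.11 TPM (WT). Its populations kept the same order as those of *Egr1* and *Egr2*, with overlap between the genotypes in anergic and naive cells.

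*Nab1*, the more evenly expressed corepressor (ENSMUSG00000002881, chr1:52457294-52500679, minus strand), varied over a narrower range. It stood at 192.9, 227.7 and 168.4 TPM in DKO anergic cells, against 128.0, 167.5 and 119.0 TPM in WT anergic cells. It reached 262.2, 237.9 and 286.7 TPM in DKO stimulated cells and 208.0, 229.0 and 230.6 TPM in WT stimulated cells. In naive cells it stood at 113.0, 120.5 and 109.1 TPM (DKO) and 100.1, 112.3 and 100.8 TPM (WT). The DKO and WT ranges did not overlap in anergic cells, where the lowest DKO library lay just above the highest WT library, nor in stimulated cells, while WT stimulated and DKO anergic cells overlapped, as did WT anergic and DKO naive cells.

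*Nab2*, the inducible corepressor (ENSMUSG00000025402, chr10:127660918-127668568, minus strand), stood at 87.5, 97.3 and 100.2 TPM in DKO anergic cells and at 96.7, 123.2 and 101.8 TPM in WT anergic cells. It reached 425.3, 509.4 and 557.7 TPM in DKO stimulated cells and 303.5, 414.4 and 478.3 TPM in WT stimulated cells. In naive cells it stood at 55.3, 85.2 and 60.3 TPM (DKO) and 59.7, 73.3 and 75.2 TPM (WT). Stimulated cells stood clear of the other populations, and DKO and WT overlapped in all 3. In GENCODE vM21 *Nab2* shares 40 exonic bases with *Stat6*, 151 with *Nemp1* and 1050 with the antisense transcript *Gm16229*, all on the other strand. The library kit does not mark strand, so reads from these shared stretches cannot be told apart and *Nab2* values are uncertain to that extent. *Stat6* stood at 297.5 to 843.3 TPM per library, and the group means of *Nemp1* and *Gm16229* were at most 12.5 and 0.961 TPM.

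**Figure D1:**
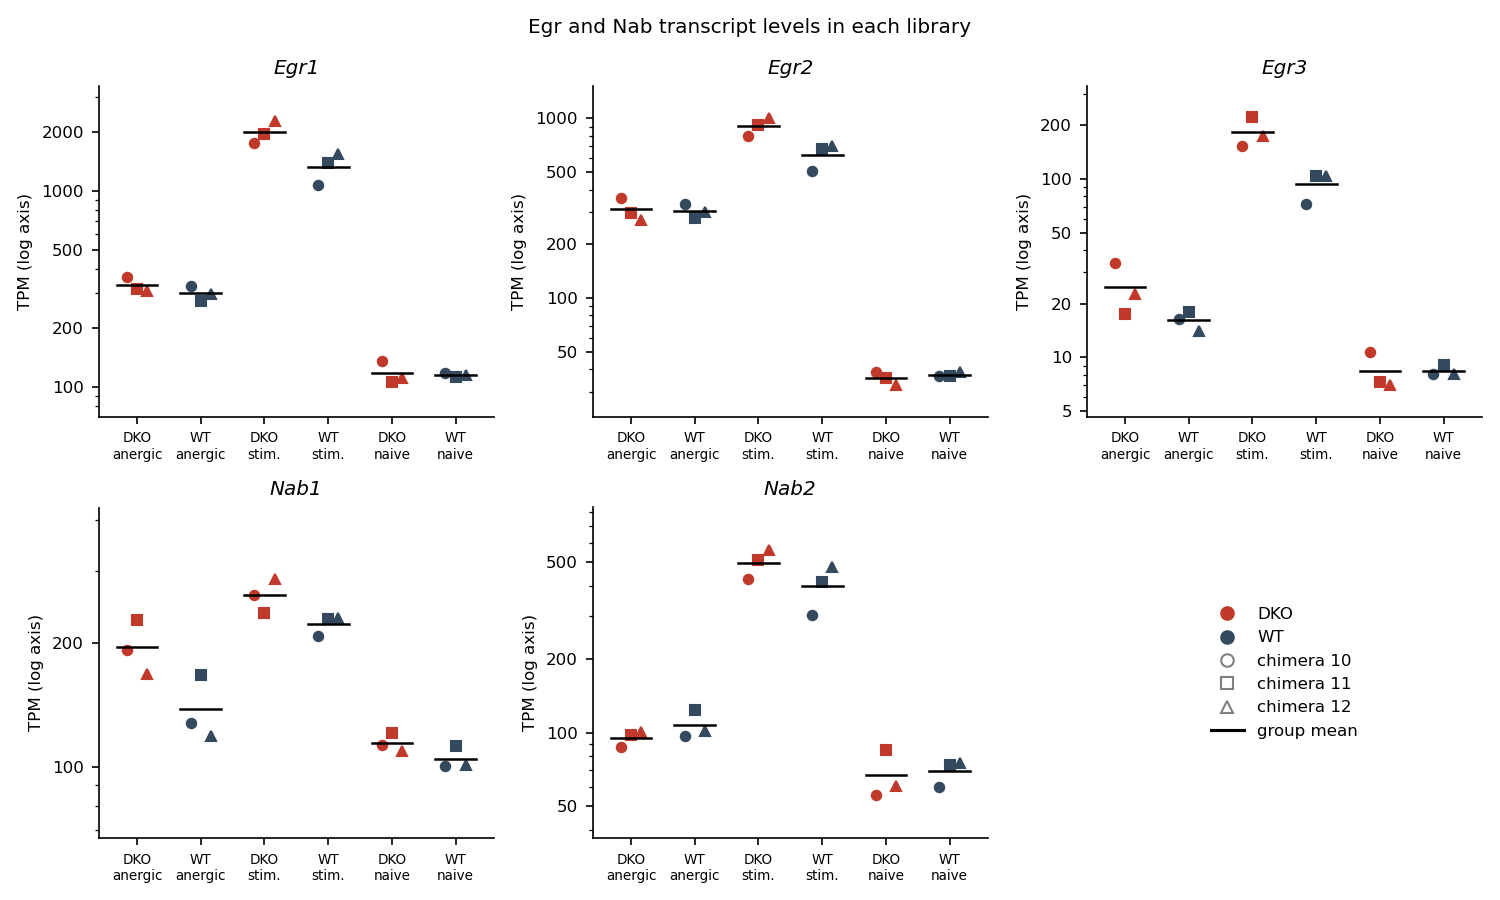
Deposited TPM (log axis) of the 5 genes in each of the 18 libraries, with DKO in red left of WT in dark blue for the anergic, stimulated (stim.) and naive populations. Symbols mark the chimera and bars the group mean. Stimulated cells have the highest group means for all 5 genes, and *Egr2* lies at 272.6 to 361.7 TPM in anergic cells against 32.6 to 38.8 TPM in naive cells.

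Anergic cells were set against naive cells first. *Egr2* and *Egr1* were higher in anergic cells of both genotypes, and *Egr3* and *Nab1* were higher in DKO anergic cells. In the fit over all 33795 genes tested (edgeR's quasi-likelihood test with Benjamini-Hochberg adjustment, called at an adjusted p under 0.05), 4 of the 5 genes rose in DKO cells, where 9.42% of all genes were called, and 2 of the 5 rose in WT cells, where 9.82% were called. *Egr2* rose by 3.25 ± 0.31 on the log2 scale in DKO cells (SE, adjusted p = 1.86e-08), a 9.52-fold difference, and by 2.80 ± 0.30 in WT cells (adjusted p = 1.79e-07), a 6.94-fold difference. *Egr1* rose by 1.62 ± 0.30 in DKO cells (adjusted p = 0.000433) and by 1.16 ± 0.30 in WT cells (adjusted p = 0.0106). For *Egr1* the DKO call was lost without chimera 11 (adjusted p = 0.0633), and the WT call without chimera 10 (0.095) or 11 (0.21) or with RLE factors (0.125).

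*Egr3* rose by 1.67 ± 0.32 in DKO cells (adjusted p = 0.000541), while in WT cells its log2 fold change was 0.72 (95% interval 0.07 to 1.37, adjusted p = 0.196). *Nab1* rose by 0.92 ± 0.26 in DKO cells (adjusted p = 0.025) and had a log2 fold change of 0.19 (−0.36 to 0.73, adjusted p = 0.745) in WT cells, which lay just below 0 with RLE factors. *Nab2* did not pass in either genotype, with 0.64 (0.07 to 1.2) in DKO cells and 0.41 (−0.15 to 0.98) in WT cells. *Nab1* in DKO cells was not called without chimera 10 (adjusted p = 0.111) or 11 (0.409) or with RLE factors (0.0522), *Nab2* in DKO cells was called without chimera 12 (0.00907), and without that chimera *Egr3* (0.0145) and *Nab2* (0.00446) were also called in WT cells. *Egr2* was called in both genotypes, and *Egr3* in DKO cells, under all 13 alternatives tried. Of the uncalled values, *Nab2* passed under 8 of 13 in DKO cells, and in WT cells *Egr3* passed under 6, *Nab2* under 5 and *Nab1* under 2. The Treg markers, at 306 to 387 TPM in DKO anergic and 1100 to 1480 TPM in WT anergic cells, summed to 22.8 to 27.2 TPM in DKO naive and 18 to 35.6 TPM in WT naive cells. The 7 CD8 and NK cell markers summed to 49.5 to 55.1 TPM in DKO anergic and 38.8 to 49 TPM in WT anergic cells, against 178 to 194 TPM in DKO naive and 207 to 226 TPM in WT naive cells, and 3 (DKO) and 4 (WT) of them were called lower. The part of either list in these values was not tested.

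The genotype difference of these changes was tested as an interaction. Of the 5 genes 0 passed in edgeR's quasi-likelihood test (0.385% of all genes did), 1 had an unadjusted p under 0.05, and 0 passed in DESeq2 or limma. That gene was *Egr3*, whose anergic over naive log2 fold change was larger by 0.95 in DKO cells (0.04 to 1.87, adjusted p = 0.466) and larger in 3 of 3 chimeras on CPM scaled by TMM, where the median of genes of logCPM over 1 was 0.26. So the calls of *Egr3* and *Nab1* in DKO and not WT cells are not shown to differ between the genotypes.

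Stimulated cells were then set against naive cells. All 5 genes rose in both genotypes, where 14.1% of all genes were called in DKO and 11.9% in WT cells. *Egr2* rose most, by 4.96 ± 0.33 (DKO) and 4.33 ± 0.32 (WT) on the log2 scale, which is 31.1-fold and 20.1-fold. *Egr1* rose by 4.38 ± 0.34 (DKO) and 3.80 ± 0.33 (WT), and *Egr3* by 4.75 ± 0.36 and 3.76 ± 0.34. *Nab2* rose by 3.19 ± 0.30 (DKO) and 2.77 ± 0.29 (WT), and *Nab1* rose least, by 1.51 ± 0.27 and 1.34 ± 0.27. The highest of these adjusted p-values was 0.000876, for *Nab1* in WT cells, and each call held under all 13 alternatives.

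Of the 5 genes 0 passed the interaction of genotype with stimulation in edgeR's quasi-likelihood test, where 0.00296% of all genes did, 1 had an unadjusted p under 0.05, and 0 passed in DESeq2 or limma. That gene was again *Egr3*, with a difference of 0.98 (0.08 to 1.89, adjusted p = 1). The 8 myeloid markers, whose cells can also express EGR genes, summed to 95.1 to 118 TPM in DKO anergic, 84.5 to 138 in WT anergic, 120 to 190 in DKO stimulated and 102 to 144 in WT stimulated cells, against 40.8 to 46.6 in DKO naive and 40.1 to 50 in WT naive cells. *Cebpb* was called higher than in naive cells in both populations and genotypes, and *Itgam* lower in both populations of WT cells. *Cebpb* stood at 109.8 to 178.9 TPM in DKO stimulated against at most 29.2 TPM in DKO naive cells. Group means were 4.02 to 17.2 TPM for *Lyz2* and 0.862 to 1.88 TPM for *Csf1r*, and none of the 8 was at 0 in all libraries of a group. In anergic over stimulated cells *Lyz2* (WT) and *Fcer1g* (DKO) were called higher, and *Cebpb* lower in both genotypes. The part of these markers in the results was not tested.

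Anergic cells were below stimulated cells for all 5 genes on group means. Of the 5 genes 4 were lower in DKO anergic than in DKO stimulated cells, where 18% of all genes were called, and 5 were lower in WT anergic than in WT stimulated cells, where 19.7% were called. *Egr3* differed most, by −3.07 (DKO) and −3.04 (WT) on the log2 scale, followed by *Egr1* at −2.76 and −2.64 and *Nab2* at −2.55 and −2.36. *Egr2* was the factor with the smallest gap, −1.71 in DKO and −1.53 in WT cells (adjusted p = 7.46e-05 and 0.000292). *Nab1* stood at −1.16 in WT cells (adjusted p = 0.00227) and at −0.59 (−1.13 to −0.05, adjusted p = 0.15) in DKO cells, where it passed under 5 of 13 alternatives. On CPM scaled by TMM the WT value was −0.68, −0.59 and −2.11 in the single chimeras. On that scale *Nab1* was at 220, 282.9 and 496.9 CPM in WT stimulated cells, against 208.0, 229.0 and 230.6 on TPM. Without chimera 12 the fitted WT value of *Nab1* was −0.69 (adjusted p = 0.00219 in edgeR's quasi-likelihood test). The other WT values also shrank without it, to −2.50 for *Egr3*, −2.17 for *Egr1*, −1.83 for *Nab2* and −1.09 for *Egr2*, and each was still called. The DKO values above include chimera 12. The Treg markers summed to 166 to 195 TPM in DKO stimulated and 151 to 180 TPM in WT stimulated cells, and 6 of the 7 were called higher in anergic than in stimulated cells of each genotype, with medians of 2.44 (DKO) and 5.27 (WT). Of the 7 CD8 and NK cell markers 2 were called lower in DKO anergic cells, and 4 were lower and 1 higher in WT anergic cells. The part of either list in these values was not tested.

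**Figure D2:**
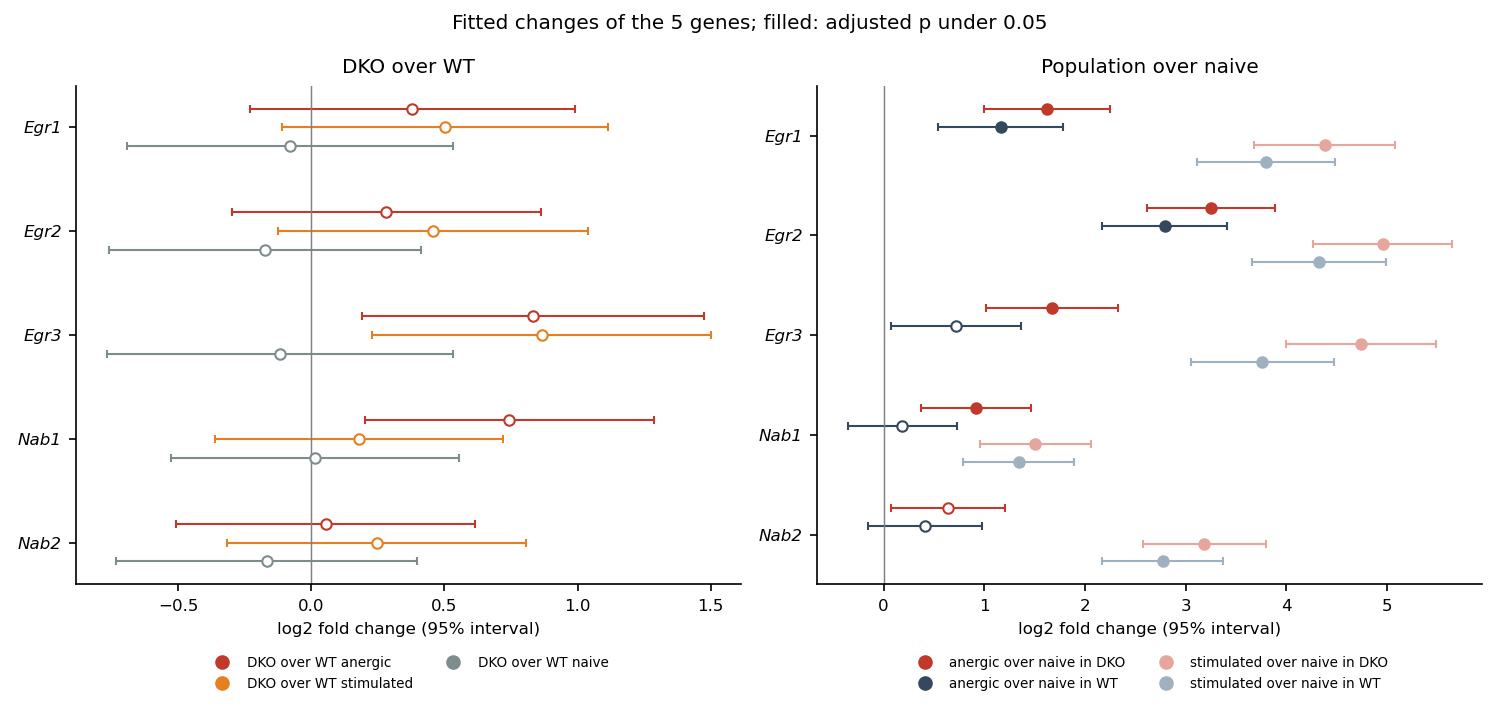
Log2 fold changes of the 5 genes with 95% intervals from edgeR's quasi-likelihood fit, DKO over WT on the left and each population over naive on the right. Filled symbols passed an adjusted p of 0.05. No symbol is filled on the left, and every stimulated symbol is filled on the right, with *Egr2* at 4.96 (DKO) and 4.33 (WT).

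DKO cells were compared with WT cells of the same population, the comparison the chimeras were built for. None of the 5 genes was called in any population. In anergic cells all 5 fitted log2 fold changes were above 0, and on CPM scaled by TMM 4 genes, all but *Nab2*, were higher in DKO than in WT cells of 3 of 3 chimeras. On TPM 2 genes were, *Egr1* and *Nab1*. *Nab1* had the lowest p, with 0.74 ± 0.26 (0.20 to 1.29, adjusted p = 0.288) and single chimeras at 0.80, 0.64 and 0.83. *Egr3* had 0.83 ± 0.31 (0.19 to 1.48, adjusted p = 0.351) with chimeras at 1.23, 0.16 and 0.99. *Egr1* (0.38, −0.23 to 0.99) and *Egr2* (0.28, −0.30 to 0.86) were less far from 0, and *Nab2* (0.05, −0.51 to 0.62) changed sign with the scaling, to −0.06 with TMM factors from genes of logCPM over 1. The median log2 fold change of the 15067 genes of logCPM over 1 was itself 0.16 in this comparison, and *Egr2* stood close to it, *Nab1* and *Egr3* well above.

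In anergic cells edgeR's quasi-likelihood test called 0 of the 5 (1.34% of all genes were called), 2 had an unadjusted p under 0.05, DESeq2 called 0 and limma on log2(TPM + 1) called 1, *Nab1* (adjusted p = 0.0175). *Nab1* passed under 8 of 13 alternatives, with adjusted p-values of 0.00222 to 1, among them leaving out chimera 12 (0.00682). It also passed without both chimera 12 libraries that stood apart (0.0139), which are not anergic and enter only the shared fit. It did not pass without chimera 10, without chimera 11, with RLE factors, in DESeq2 or without the chimera block. *Egr3* passed under 3 of 13 (0.0312 to 1), and under none that left out a whole chimera. On TPM 1 of the 5, *Nab1*, had ranges that did not overlap, where 23.7% of all genes did. The Treg markers and the library totals given above differ between these groups, and the part of either in the values was not tested.

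In stimulated cells 0 of the 5 were called by edgeR's quasi-likelihood test (0.216% of all genes were), 1 had an unadjusted p under 0.05, and DESeq2 and limma called 0. All 5 fitted values were above 0. *Egr3* had 0.87 ± 0.31 (0.23 to 1.5, adjusted p = 0.914) with chimeras at 1.33, 1.22 and 0.31, *Egr1* 0.50 (−0.11 to 1.11), *Egr2* 0.46 (−0.12 to 1.04), *Nab2* 0.25 (−0.32 to 0.81) and *Nab1* 0.18 (−0.36 to 0.72). On CPM scaled by TMM chimera 12 held the lowest value of each of the 5 genes. On TPM all 5 were higher in DKO than in WT stimulated cells of each chimera. There *Nab1* was closest between the genotypes in chimera 11, at 237.9 (DKO) against 229.0 TPM (WT). Without chimera 12 the log2 fold changes were 0.79 for *Egr1* (adjusted p = 0.059), 0.74 for *Egr2* (0.0852), 0.60 for *Nab2* (0.135) and 0.41 for *Nab1* (0.558), and without both of its libraries that stood apart they were 1.01 (0.0504), 0.95 (0.0583), 0.79 (0.0865) and 0.64 (0.255). *Egr3* passed under 4 of 13 alternatives (adjusted p of 0.00806 to 1), among them leaving out chimera 12, with a log2 fold change of 1.29 (0.011), and leaving out both of its libraries that stood apart, with 1.43 (0.0105). Without chimera 10, and likewise without chimera 11, none of the 5 genes passed.

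On TPM 4 of the 5 genes, all but *Nab2*, had stimulated DKO and WT ranges that did not overlap, where 9.03% of all genes did. On CPM scaled by TMM the ranges of all 5 overlapped, and the WT stimulated library of chimera 12 stood high on that scale: for *Egr1* the values were 2426, 2871 and 4011 CPM in DKO stimulated cells, against 1232, 1859 and 3622 CPM in WT stimulated cells.

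In naive cells edgeR's quasi-likelihood test called 0 of the 5 (0.0947% of all genes were called), 0 had an unadjusted p under 0.05, and DESeq2 and limma called 0. Log2 fold changes lay between −0.17 for *Egr2* and 0.01 for *Nab1*, and the widest interval, that of *Egr3*, ran from −0.77 to 0.53. Chimera 12, whose WT naive library stood apart, held the lowest value of each gene on CPM scaled by TMM. These ran from −0.69 for *Nab2* to −0.26 for *Nab1*. Chimeras 10 and 11 lay between −0.21 and 0.32, both for *Nab2*. None of the 5 had TPM ranges that did not overlap, where 13.1% of all genes did. Whether the genotype difference was larger in anergic than in stimulated cells was also tested, and edgeR's quasi-likelihood test called 0 of the 5 (0.479% of all genes were called), with 0 at an unadjusted p under 0.05 and 0 in DESeq2 and limma. The largest such difference was that of *Nab1*, 0.56 (−0.20 to 1.33, adjusted p = 0.897).

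**Figure D3:**
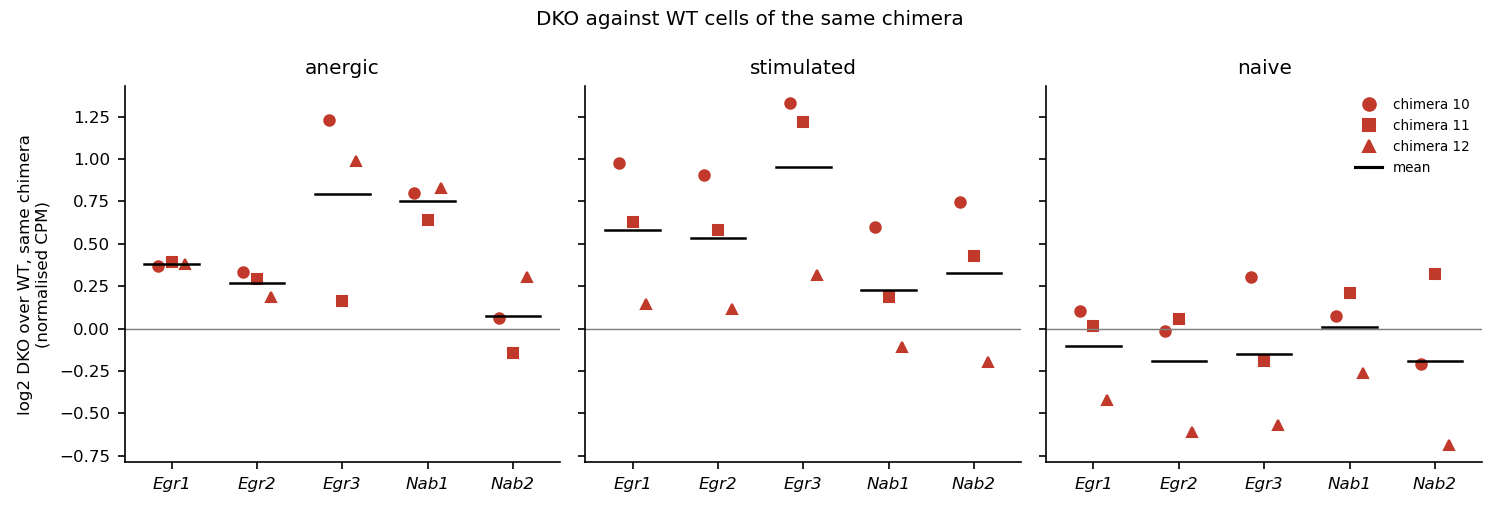
Log2 ratio of DKO to WT cells of the same chimera for each gene, on CPM scaled by TMM, in the anergic, stimulated and naive populations, with bars at the mean. In anergic cells *Nab1* lies at 0.80, 0.64 and 0.83, and in stimulated cells chimera 12 is the lowest for every gene.

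*Egr2* made up 46.7 ± 1.37% of the summed TPM of *Egr1*, *Egr2* and *Egr3* in DKO anergic cells and 49.0 ± 0.256% in WT anergic cells (SD, n = 3 each). In DKO stimulated and WT stimulated cells its share was 29.5 ± 0.340% and 30.6 ± 0.756%, and in DKO naive and WT naive cells 22.3 ± 1.61% and 23.3 ± 0.632%. The anergic, stimulated and naive ranges did not overlap. *Egr1* held 49.7 ± 1.64% in DKO anergic and 48.3 ± 0.288% in WT anergic cells, against 72.6 ± 1.42% in DKO naive and 71.4 ± 0.791% in WT naive cells, and *Egr2* came close to *Egr1* in anergic cells, with an *Egr2* to *Egr1* ratio of 0.942 ± 0.0566 (DKO) and 1.01 ± 0.00551 (WT).

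*Egr3* held no more than 7.21% of the sum in any library. Its ratio to *Egr2* was 0.0785 ± 0.0177 in DKO anergic and 0.0535 ± 0.00969 in WT anergic cells, against 0.232 ± 0.0402 in DKO naive and 0.225 ± 0.0175 in WT naive cells. The factors thus did not move in proportion: anergic cells had more *Egr2* for their *Egr3* than naive cells in each of the 3 chimeras.

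*Nab2* exceeded *Nab1* in every stimulated library and in no other. The ratio of *Nab2* to *Nab1* was 1.90 ± 0.262 in DKO stimulated and 1.78 ± 0.309 in WT stimulated cells, and below 1 in all anergic and naive libraries. In anergic cells it was 0.454, 0.427 and 0.595 in the DKO libraries, against 0.756, 0.735 and 0.856 in the WT libraries, without overlap and lower in DKO cells of 3 of 3 chimeras, by −0.73, −0.78 and −0.52 on the log2 scale. No test was run on this ratio, since with 3 chimeras an exact two-sided sign-flip test cannot go below p = 0.25.

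Summed *Egr1*, *Egr2* and *Egr3* over summed *Nab1* and *Nab2* gave 2.30 ± 0.386 in DKO anergic and 2.58 ± 0.544 in WT anergic cells, 4.05 ± 0.111 in DKO stimulated and 3.29 ± 0.0648 in WT stimulated cells, and 0.902 ± 0.189 in DKO naive and 0.927 ± 0.0822 in WT naive cells. The stimulated DKO libraries, at 3.92 to 4.12, lay above the stimulated WT libraries, at 3.22 to 3.35, without overlap. In DKO against WT stimulated cells the ratio was 3.92 against 3.22 in chimera 10, 4.12 against 3.35 in chimera 11 and 4.10 against 3.30 in chimera 12. No test was run on it. This ratio is taken within a library and does not depend on how libraries are scaled.

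**Figure D4:**
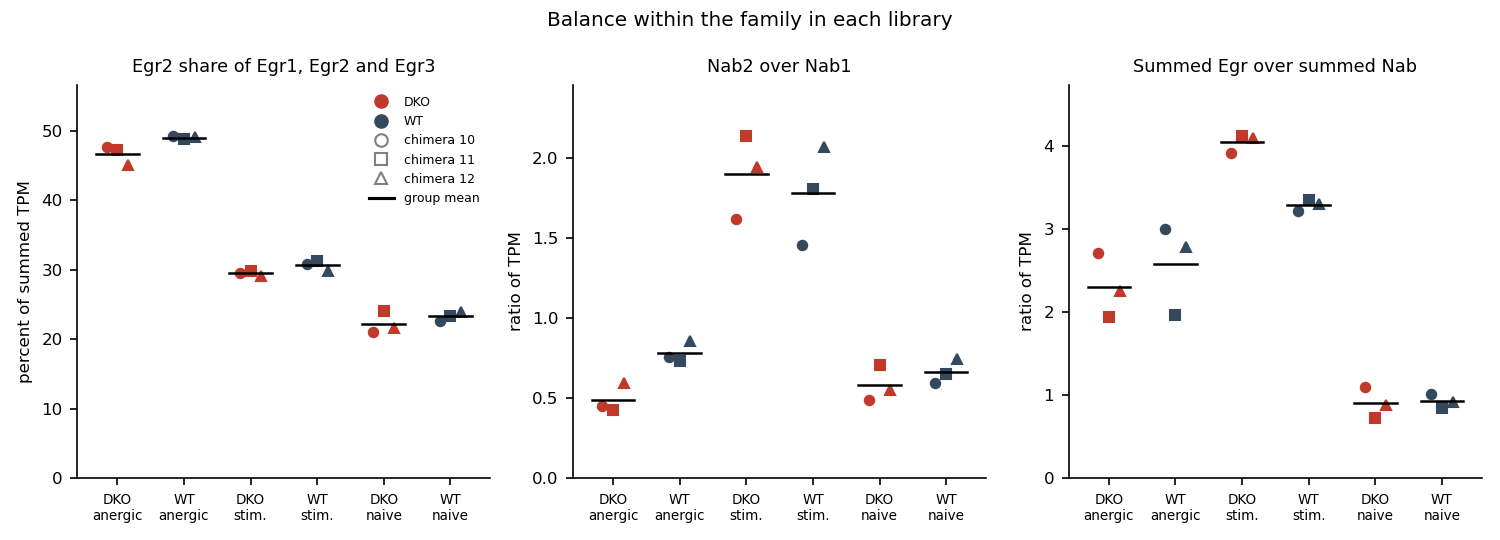
Share of *Egr2* in the summed TPM of the 3 factors (percent, left), TPM ratio of *Nab2* to *Nab1* (middle) and of summed factors to summed corepressors (right) in each library, with DKO in red left of WT in dark blue and bars at group means. The *Egr2* share is 45.1 to 49.3% in anergic and 21.0 to 24.1% in naive libraries, and the *Nab2* to *Nab1* ratio of anergic cells is lower in DKO libraries.

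*Egr4*, the family member that lacks the domain bound by NAB proteins, was the rarest and had a different order. It was highest in anergic cells, at 8.88, 5.32 and 6.99 TPM (DKO) and 4.26, 4.19 and 6.41 TPM (WT), against 1.74, 1.54 and 1.86 TPM in DKO stimulated and 0.343, 0.953 and 0.680 TPM in WT stimulated cells. Naive cells held 0, 1 and 0 counts (DKO) and 5, 2 and 6 counts (WT), too few for a fold change in DKO cells. Anergic cells were above stimulated cells by 1.82 ± 0.48 (DKO, adjusted p = 0.00716) and 2.25 ± 0.49 (WT, adjusted p = 0.0013) on the log2 scale, the opposite direction to the members.

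Genes known to need EGR2 or EGR3, or tied to the anergy program in which they act, were read beside the factors as a list of 22, all of which were tested. In DKO against WT anergic cells 6 rose and 2 fell, with a median log2 fold change of 0.51 over the list, −0.03 over all genes and 0.16 over the genes of logCPM over 1, which include 21 of the 22. Over all genes 1.34% were called in this comparison, and 2.57% of those of logCPM over 1. *Rnf128*, which encodes the anergy ubiquitin ligase GRAIL, was at 56.3 ± 12.9 TPM in DKO anergic and 19.6 ± 4.91 TPM in WT anergic cells (log2 fold change 1.75, adjusted p = 0.00226), and *Nrgn*, which encodes the calmodulin-binding protein neurogranin, at 28.6 ± 7.28 and 4.68 ± 1.75 TPM (2.81, adjusted p = 0.0043). *Tnfrsf9*, which encodes the costimulatory receptor 4-1BB, fell to 85.8 ± 7.19 TPM in DKO anergic cells, against 606 ± 22.7 TPM in WT anergic cells (−2.58, adjusted p = 2.83e-06), and *Prdm1*, which encodes the repressor BLIMP1, to 10.2 ± 0.675 against 35.8 ± 0.785 TPM (−1.57, adjusted p = 0.000169). The list thus moved in both directions, while the factors themselves were not called. In the same comparison 5 of the 7 Treg markers were called lower, with a median of −2.87 over the 7, and their part in these values was not tested. The list was chosen with earlier results of these libraries known. Without chimera 10, and likewise without chimera 11, 0 rose and 2 fell, and without chimera 12 there were 8 higher and 3 lower. DESeq2 called 5 higher and 2 lower, limma on log2(TPM + 1) 6 and 4, and limma on log2(TPM + 0.1) 2 and 4. In stimulated and in naive cells 1 of the 22 rose in DKO cells, *Nrn1* in both, and 1 fell, *Tnfrsf9* in both, where 0.216% (stimulated) and 0.0947% (naive) of all genes were called. Without chimera 12 the stimulated count was 4 higher and 1 lower, and without chimera 10 or 11 the naive count was 0.

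Between populations the same 22 genes split. In anergic over naive cells 10 rose and 3 fell in DKO, and 9 rose and 3 fell in WT cells, where 9.42% (DKO) and 9.82% (WT) of all genes were called, and 17.9% and 19.1% of those of logCPM over 1. Without chimera 10 the DKO count was 9 higher and 1 lower, and without chimera 11 it was 9 and 2. *Lag3*, which encodes an inhibitory receptor, rose by 6.69 (DKO) and 6.37 (WT), and *Rnf128* by 6.37 and 5.27. In stimulated over naive cells 11 rose and 4 fell in DKO, and 10 rose and 2 fell in WT cells, where 14.1% (DKO) and 11.9% (WT) of all genes were called, and 29.5% and 25.2% of those of logCPM over 1. Without chimera 10 or 11 a single gene fell in each genotype, and without chimera 12 the WT count was 10 higher and 4 lower. *Sema7a*, a membrane semaphorin, rose by 7.10 (DKO) and 5.95 (WT), and *Tnfrsf9* by 4 and 4.77, while *Rnf128*, at −0.94 and 0.40, did not pass.

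The other immediate early genes followed stimulation like the EGR genes. Of 24 listed, 22 rose in DKO and 21 in WT stimulated over naive cells, and none fell, where 29.5% (DKO) and 25.2% (WT) of the genes of logCPM over 1 were called. In anergic over naive cells 9 rose and 3 fell in DKO, and 5 rose and 2 fell in WT cells, where the shares of such genes were 17.9% and 19.1%. *Irf4*, a transcription factor graded by receptor signal strength, rose by 3.36 (DKO) and 3.43 (WT) in anergic cells, and *Myc*, the growth regulator, fell by 2.02 and 2.34 there. Leaving out a chimera gave 4 to 12 higher in DKO and 3 to 11 in WT cells, with the highest count in each without chimera 12. In anergic over stimulated cells 20 (DKO) and 21 (WT) of the 24 were lower, where 35.7% and 39.5% of the genes of logCPM over 1 were called in either direction. Between the genotypes edgeR's quasi-likelihood test called 0 of 24 in anergic, stimulated or naive cells, where 7, 5 and 1 had an unadjusted p under 0.05, DESeq2 called 0 in each, and limma on log2(TPM + 1) called 5, 3 and 0. Of all genes edgeR's test called 1.34%, 0.216% and 0.0947% in these comparisons, and 2.57%, 0.425% and 0.179% of those of logCPM over 1. Without chimera 12 edgeR's quasi-likelihood test called 4 higher and 1 lower in anergic and 5 higher in stimulated cells, and without chimera 10 or 11 it called 0 in both.

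Of 18 genes that carry the signal to EGR promoters (receptor-proximal kinases, the ERK cascade, serum response factor, ETS partners, calcineurin and NFAT), 7 rose and 2 fell in DKO anergic over naive cells, and 4 rose and 2 fell in WT. *Nfatc1* rose by 3.04 (DKO) and 2.22 (WT), *Zap70* by 2.22 and 1.02, and *Ppp3ca*, the calcineurin catalytic subunit, fell by 2.32 and 1.35. In stimulated over naive cells 4 rose and 2 fell in DKO, and 3 rose and 3 fell in WT. Over all genes 14.1% (DKO) and 11.9% (WT) were called in that comparison, and 29.5% and 25.2% of those of logCPM over 1. In anergic over naive cells 17.9% (DKO) and 19.1% (WT) of the genes of logCPM over 1 were called. Without chimera 12 the counts were 11 higher and 3 lower in DKO anergic over naive cells and 10 and 4 in DKO stimulated over naive cells. Without chimera 11 a single gene rose in WT anergic over naive cells. Between the genotypes 1 of 18 was called, in anergic cells, where 1.34% of all genes and 2.57% of those of logCPM over 1 were called. That gene was *Ppp3ca*, which fell by 1.36 in DKO against WT (adjusted p = 0.000253 in edgeR's quasi-likelihood test), a call that was lost without chimera 11. In stimulated and naive cells that test called 0 of 18, against 0.216% and 0.0947% of all genes. There 1 and 0 had an unadjusted p under 0.05, DESeq2 called 0 and 0, and limma 1 and 0.

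The 13 genes of the NuRD complex, the partner of the NAB proteins, were read last. In stimulated over naive cells 6 rose in DKO and 3 in WT, led by *Rbbp7* at 2.02 (DKO) and 1.77 (WT). Of all genes 14.1% (DKO) and 11.9% (WT) were called in that comparison, and 29.5% and 25.2% of those of logCPM over 1. Leaving out a chimera gave 1 to 9 in DKO and 1 to 4 in WT cells, the lowest in each without chimera 11. In anergic over naive cells 2 fell in WT, one of them *Hdac2* at −0.75. Of the genes of logCPM over 1, 17.9% (DKO) and 19.1% (WT) were called there. Both WT counts, 3 and 2 of 13, lay near the shares of genes of logCPM over 1. In DKO anergic over naive cells edgeR's quasi-likelihood test called 0 of 13, with 3 at an unadjusted p under 0.05, DESeq2 called 0 and limma 6. Between the genotypes edgeR's test called 0 of 13 in anergic, stimulated and naive cells, with 1, 0 and 0 at an unadjusted p under 0.05, 0 in DESeq2, and 2, 0 and 0 in limma. Of the genes of logCPM over 1 edgeR's test called 2.57%, 0.425% and 0.179% in these comparisons.

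The genes whose levels followed each member most closely over the 18 libraries were sought among 15062 genes by Pearson's r on log2(TPM + 1). For *Egr1* these were *Slamf1* (r = 0.997), *Lcp2* (0.995) and *Map2k3* (0.994), for *Egr2* *Plk3* (0.995), *Hspa5* (0.994) and *Hivep3* (0.993), and for *Egr3* *Tgfb1* (0.992), *Zswim4* (0.991) and *Tnf* (0.990). For *Nab2* they were *Nr4a1*, the disrupted gene whose transcript was still counted in DKO libraries (0.993), *Nfkbid* (0.991) and *Rheb* (0.991), and for *Nab1* *Pgam1* (0.969), *Bmi1* (0.968) and *Ivns1abp* (0.967). The libraries are not independent points, since they form 3 populations and pairs from 1 host, and these values are a description. All 15 genes were the same with a pseudocount of 0.1. Among the members r ran from 0.843, for *Egr2* with *Nab2*, to 0.986, for *Egr1* with *Egr3*.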

How the data were processed

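Total RNA of sorted cells was made into cDNA with a SMART-seq low input kit and into libraries by tagmentation. Read counts per gene were deposited for 18 libraries, made by the authors with STAR and featureCounts on mm10 per the labels. The sources used here name neither their versions nor the gene lengths behind the TPM values, which the authors also deposited. Further tables hold edgeR comparisons by the authors (log2 fold changes, p-values) and were not used. The 5 genes and the gene lists were chosen with earlier results of these data known.

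Of 55401 entries 117 had a blank name, with 0.0654 to 0.136% of counts, and were left out. Coordinates and overlaps come from GENCODE vM21, where 53285 of 55284 named entries were found, and promoters from RefSeq. In R 4.3.3, edgeR 4.0.16 (TMM factors, filterByExpr, quasi-likelihood test, prior count 2) was fitted to all 6 groups with the chimera as a block, as in the study's paired analysis, with Benjamini-Hochberg adjustment over 33795 genes. A standard error is the size of the log2 fold change divided by the root of F. The values of single chimeras are differences of log2 CPM scaled by TMM, with 0.5 added. The fit was tested on simulated data. The pairing comes from the chimera number in the labels, since same-numbered libraries share a host. The correlation of deviations from group means was −0.492 to 0.879 (median −0.0437) for the 45 library pairs within a chimera, and −0.234 to 0.548 (median 0.199) for the 9 of these that pair DKO and WT cells of a population. Between chimeras (90 pairs) it was −0.843 to 0.802, with a median of 0.0175. Replicates of a group differed by more than sampling noise (18 pairs, chi-square divided by the number of genes between 6.96 and 43.6), and p-values rest on 3 chimeras.

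The alternatives tried were RLE factors, no chimera block, TMM factors from genes with average logCPM over 1, DESeq2 1.42.0, other low-count filters, a fit to only the groups compared, limma 3.58.1 on log2(TPM + 1) and log2(TPM + 0.1), leaving out each chimera, and leaving out the WT stimulated and WT naive libraries of chimera 12. The genes named are the 5, *Egr4*, genes that overlap them, the disrupted genes, and for each of the 5 the 3 genes with the most similar levels. From each list no more than 4 genes were named per comparison, drawn from those of lowest adjusted p, with *Nrn1* beside its count. A gene named in a comparison could also be given in another, as *Rnf128* was in stimulated over naive cells. Cell type markers are named beside the results they touch.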

Additional observations from a re-analysis of the deposited data

Results flagged for a closer look

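Among the genes read beside the EGR factors (lists of 22, 24, 18 and 13), 3 had a genotype difference that itself differed between populations (edgeR's quasi-likelihood test of the interaction, Benjamini-Hochberg adjustment). *Nrgn* passed in the interaction of genotype with anergy, where 0.385% of all genes and 0.79% of those of logCPM over 1 were called. *Rnf128* and *Prdm1* passed for the genotype effect in anergic over stimulated cells, where these shares were 0.479% and 1.04%. For *Nrgn* the log2 difference of anergic over naive cells was larger in DKO than in WT by 4.093 (SE 0.819, adjusted p = 0.0194, larger in 3 of 3 chimeras), with 28.6 TPM in DKO anergic, 4.68 in WT anergic, 0.281 in DKO naive and 0.917 in WT naive cells. The naive values rest on 1 to 4 counts per library in DKO and 3 to 15 in WT cells, so the size of this difference is uncertain. In that interaction 5 of 7 Treg markers were called lower, with a median of −3.20. For *Rnf128* the DKO over WT log2 fold change was larger in anergic than in stimulated cells by 2.439 (SE 0.535, adjusted p = 0.0337, larger in 3 of 3 chimeras), with 56.3 TPM in DKO anergic, 19.6 in WT anergic, 0.257 in DKO stimulated and 0.434 in WT stimulated cells. Its stimulated values rest on 3 to 13 counts per library in DKO and 12 to 17 in WT cells, so the size of this difference is uncertain as well. For *Prdm1* the same difference was −1.583 (SE 0.324, adjusted p = 0.0187, below 0 in 3 of 3 chimeras), with 10.2 TPM in DKO anergic, 35.8 in WT anergic, 4.99 in DKO stimulated and 4.86 in WT stimulated cells. In this comparison, which *Rnf128* shares, 5 of 7 Treg markers were called lower, with a median of −2.52. The part of these markers in the 3 results was not tested.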

How the results depend on the processing

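Of 780 values of the 5 genes under the alternatives, 732 kept their direction and side of the threshold or, where uncalled, stayed uncalled, 41 passed it newly, 7 no longer passed and 0 called values changed sign. In DKO over WT anergic cells the count of called genes, 0, became 1 with TMM factors from genes with logCPM over 1, with only such genes tested, and with limma at either pseudocount, and 2 with no low-count filter, with only the groups compared and without the chimera 12 libraries that stood apart; leaving out a chimera gave 0 to 1. In DKO over WT stimulated cells it moved from 0 to 1 with no low-count filter, with only the groups compared and without those libraries, and leaving out a chimera gave 0 to 1. In anergic over naive WT cells it moved from 2 to 1 with RLE factors, to 4 with both logCPM settings and to 5 with limma at either pseudocount, and leaving out a chimera gave 1 to 4. In anergic over naive DKO cells leaving out a chimera gave 2 to 5. The cause of these moves was not tested. Removing the replicate block changed none of the 12 counts, for example 4 in anergic over naive DKO cells. Uncalled values changed sign under the alternatives for *Nab2* in DKO over WT anergic cells (−0.17 to 0.17), *Nab1* in anergic over naive WT cells (−0.07 to 0.45), the 5 genes in DKO over WT naive cells, *Nab2* in the interaction of genotype with anergy (−0.10 to 0.60) and, for the genotype effect in anergic over stimulated cells, *Egr3* (−0.58 to 0.49), *Egr1* (−0.63 to 0.01) and *Nab2* (−0.73 to 0.000485). Intervals of interactions were wider than those of DKO over WT, for *Egr3* from 0.04 to 1.87 in the interaction of genotype with anergy, against 0.19 to 1.48 in DKO over WT anergic cells.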
